A study of Mus musculus with 12 samples.

Results

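Genes that p53 switches on, the growth-arrest genes among them and Myc were followed in injured mouse hip cartilage. The set held 9 genes: Cdkn1a, Mdm2, Ccng1, Gadd45a, Btg2, Trp53inp1, Plk2, Plk3 and Myc. Every probe that carried the symbol of a member was taken, and 8 of the 9 genes had probes in the normalized table, 15 probes in all, out of 15424 symbols and 21004 probes. The exception was Btg2, a target of p53 that slows proliferation. Its sole probe lay outside the normalized table and was detected on 0 of 12 arrays, with a signal of 89.8 to 134 where array medians were 121 to 190, so no level is given for it. Additional probes of Mdm2 and Myc also lay outside the table and were detected on 0 of 12 arrays.

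RNA was measured on Illumina mouse BeadChips in 12 samples of hip cartilage, 3 in each of 4 groups. WT control and WT injured cartilage came from wildtype C57BL6 mice, and Mapk9 KO control and Mapk9 KO injured cartilage from C57BL6 mice that lack Mapk9, the gene of a stress-activated kinase of the JNK family. All mice were 4 to 6 weeks old by the labels. The study's methods give 5 to 6 weeks and do not describe Mapk9 KO mice. For the WT arrays each replicate pooled 6 hips of 3 mice. Injury was avulsion of the femoral epiphysis followed by 4 h of culture, while control cartilage was snap-frozen, so injury and culture cannot be told apart and both are meant by "post injury". In whole tissue, fewer cells of a type and less RNA per cell cannot be told apart either.

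The transcription factor p53 is held at a low level by Mdm2, which marks it for destruction, and it accumulates under DNA damage and other stress. It then switches on genes that halt the cell cycle, such as Cdkn1a, Gadd45a and Btg2, together with Mdm2 itself, which closes a feedback loop. Myc works in the other direction and drives growth and division with its partner Max, and its gene, like those of Plk2 and Plk3, belongs to the immediate early genes that answer serum and stress within hours.

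Promoter windows of the members are shown because several of these genes moved together. RefSeq windows (GRCm38.p6) of 300 bases, 250 before and 50 after the start, were found for 7 of the 9 members, 8 windows in all. Myc and Trp53inp1 had none. Capitals mark the p53 decamer consensus in Cdkn1a, Gadd45a, Mdm2 and Ccng1 and the cAMP response element TGACGTCA in Plk2. All windows read 5′ to 3′ on the strand of the gene. They lie at chr17:29090729-29091028 (plus strand, the upstream of 2 Cdkn1a starts), chr6:67037358-67037657 (minus strand, Gadd45a), chr10:117710709-117711008 (minus strand, Mdm2), chr11:40755237-40755536 (minus strand, Ccng1), chr13:110394794-110395093 (plus strand, Plk2) and chr4:117133914-117134213 (minus strand, Plk3).
Cdkn1a: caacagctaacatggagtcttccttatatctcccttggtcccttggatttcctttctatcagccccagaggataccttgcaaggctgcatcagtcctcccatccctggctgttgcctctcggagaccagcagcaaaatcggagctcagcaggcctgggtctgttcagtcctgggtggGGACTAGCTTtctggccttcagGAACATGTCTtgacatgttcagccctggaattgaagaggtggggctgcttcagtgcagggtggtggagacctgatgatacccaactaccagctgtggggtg
Gadd45a: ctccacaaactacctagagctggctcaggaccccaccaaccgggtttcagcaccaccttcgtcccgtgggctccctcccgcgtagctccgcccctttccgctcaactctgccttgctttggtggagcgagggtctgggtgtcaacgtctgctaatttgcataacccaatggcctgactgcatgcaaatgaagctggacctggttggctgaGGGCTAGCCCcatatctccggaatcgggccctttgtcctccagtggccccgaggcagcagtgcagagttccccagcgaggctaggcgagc
Mdm2: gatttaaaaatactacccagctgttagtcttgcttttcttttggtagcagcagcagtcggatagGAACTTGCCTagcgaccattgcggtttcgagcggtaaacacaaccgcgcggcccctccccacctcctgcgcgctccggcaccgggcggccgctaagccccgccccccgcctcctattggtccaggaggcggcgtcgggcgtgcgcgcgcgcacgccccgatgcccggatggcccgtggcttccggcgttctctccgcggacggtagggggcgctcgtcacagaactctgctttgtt
Ccng1: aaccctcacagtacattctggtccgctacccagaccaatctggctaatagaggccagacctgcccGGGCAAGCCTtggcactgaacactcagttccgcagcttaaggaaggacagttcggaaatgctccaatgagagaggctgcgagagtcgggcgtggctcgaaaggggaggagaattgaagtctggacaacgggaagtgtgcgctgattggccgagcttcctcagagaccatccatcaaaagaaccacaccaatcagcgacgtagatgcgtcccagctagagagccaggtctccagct
Plk2: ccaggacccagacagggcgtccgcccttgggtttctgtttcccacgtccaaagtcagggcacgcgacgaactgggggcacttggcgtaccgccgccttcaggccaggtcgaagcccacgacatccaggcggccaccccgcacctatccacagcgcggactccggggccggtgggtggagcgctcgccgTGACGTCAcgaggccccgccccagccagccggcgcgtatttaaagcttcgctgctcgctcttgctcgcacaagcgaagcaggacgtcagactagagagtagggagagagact
Plk3: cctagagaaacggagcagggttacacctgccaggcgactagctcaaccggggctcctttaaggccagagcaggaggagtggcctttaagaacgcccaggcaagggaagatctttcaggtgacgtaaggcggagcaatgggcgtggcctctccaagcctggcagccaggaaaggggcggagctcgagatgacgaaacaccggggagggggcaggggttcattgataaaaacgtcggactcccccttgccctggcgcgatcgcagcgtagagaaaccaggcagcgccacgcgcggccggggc

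The p53 decamer consensus was found in 4 of the 8 member windows and in 8.36% of all 32851 windows. Apart from Myc, the members were grouped as genes that p53 switches on, so this count is no result of these data. The member windows were also richer in GC, at 54.7 to 72%, where the median of all windows was 52.7%. The Cdkn1a window upstream held it at bases 178 to 187 and at bases 200 to 209. The cAMP response element, bound by CREB family factors, was found in the windows of Plk2 and Btg2 and in 1.79% of all windows. The AP-1 site TGANTCA (7.81% of all windows), the E-box CACGTG (7.15%), to which Myc and Max bind, and the serum response element consensus (1.63%) were found in 0 of the 8 member windows. The Plk3 window and the downstream Cdkn1a window held none of the motifs searched. Of the 4 members upregulated in both genotypes below, the printed windows of Cdkn1a and Gadd45a held the p53 decamer and those of Plk2 and Plk3 did not, while of the others that held it Ccng1 was downregulated and Mdm2 was not called. Both strands were searched, and a match describes letters, not binding.

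Levels are normalized log2 signals, and a change is the mean of the injured arrays minus that of the control arrays, so that 1 is a doubling. A gene was called upregulated or downregulated where the fold change exceeded 2 and the adjusted p of the limma test over all 21004 probes was under 0.05. By this rule 4 members were upregulated in WT (Cdkn1a, Gadd45a, Plk2 and Plk3) and 1 was downregulated (Ccng1), where 7.55% of all probes were upregulated and 7.14% downregulated. In Mapk9 KO the same 4 members and Myc were upregulated and Ccng1 was downregulated, against 9.59% and 9.14% of all probes. Counted by genes, with a gene called if any of its probes passed, 8.36% of all 15424 genes were upregulated and 8.25% downregulated in WT, and 10.6% and 10.4% in Mapk9 KO. By probes, 8 of 15 passed in WT (14.7% of all probes in either direction) and 9 of 15 in Mapk9 KO (18.7%). The median change over the 8 brightest member probes was 1.27 in WT and 1.44 in Mapk9 KO, while the median of all probes was -0.02 in both. The brightest probe of a gene is the probe with the highest mean over the 12 arrays.

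**Figure D1:**
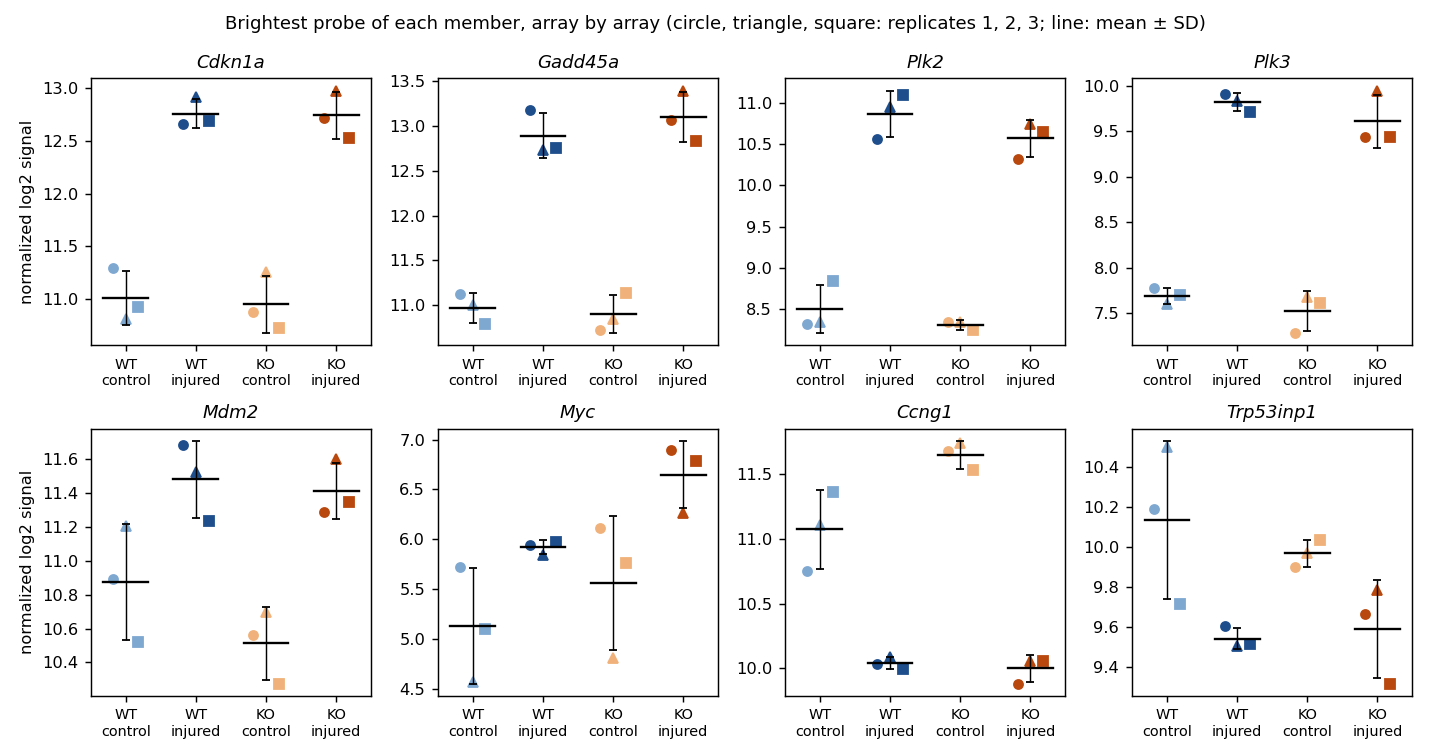
Normalized log2 signal of the brightest probe of each of the 8 measured members in the 4 groups. Points are arrays (circle, triangle and square for replicates 1, 2 and 3), horizontal lines are means and bars SD (n = 3), and each panel has its own axis, which does not start at 0. Injured arrays of Cdkn1a, Gadd45a, Plk2, Plk3, Mdm2 and Myc lie above all control arrays of their genotype, and those of Ccng1 and Trp53inp1 below. Of all probes, 20.3% were separated upwards and 20.8% downwards in WT, and 24.5% and 25.2% in Mapk9 KO.

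Cdkn1a encodes p21, the inhibitor of cyclin-dependent kinases through which p53 halts the cell cycle. Its brightest probe read 11.30, 10.81 and 10.93 on the WT control arrays and 12.66, 12.92 and 12.69 on the WT injured arrays. In Mapk9 KO it read 10.87, 11.25 and 10.72 in control and 12.72, 12.98 and 12.53 in injured cartilage. The injured arrays lay above the control arrays in both genotypes without overlap, as did those of 20.3% of all probes in WT and 24.5% in Mapk9 KO. The change was 1.75 in WT (SE 0.21, 3.36-fold, adjusted p = 0.000300) and 1.79 in Mapk9 KO (SE 0.20, 3.47-fold, adjusted p = 5.78e-05). All 3 Cdkn1a probes were upregulated in both genotypes, with changes of 1.69 to 1.93 in WT and 1.55 to 1.84 in Mapk9 KO.

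Gadd45a encodes a small stress-induced protein that acts in growth arrest, DNA repair and the activation of p38 and JNK signalling. On the WT arrays its brightest probe read 11.12, 11.01 and 10.79 in control and 13.17, 12.73 and 12.76 post injury. The Mapk9 KO arrays read 10.72, 10.85 and 11.14 in control and 13.07, 13.39 and 12.83 post injury. The groups did not overlap in either genotype, where 20.3% of all probes in WT and 24.5% in Mapk9 KO were separated upwards. Gadd45a rose by 1.91 in WT (SE 0.21, 3.77-fold, adjusted p = 0.000188) and by 2.19 in Mapk9 KO (SE 0.20, 4.57-fold, adjusted p = 1.45e-05). The other Gadd45a probe rose by 1.62 and 2.06.

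Plk2 encodes a polo-like kinase that is a target of p53 and of serum stimulation. Its level was 8.32, 8.34 and 8.84 on the WT control arrays and 10.56, 10.95 and 11.10 on the WT injured arrays. On the Mapk9 KO arrays it was 8.34, 8.34 and 8.25 in control and 10.32, 10.74 and 10.65 post injury. Plk2 had the widest span of group means among the members, 2.56 on the log2 scale. The change was 2.37 in WT (SE 0.23, 5.15-fold, adjusted p = 9.98e-05) and 2.26 in Mapk9 KO (SE 0.18, 4.79-fold, adjusted p = 4.63e-06).

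Plk3, a related kinase that answers DNA damage and oxidative stress, was measured at 7.78, 7.60 and 7.70 on WT control arrays and at 9.91, 9.84 and 9.71 on WT injured arrays. In Mapk9 KO the values were 7.28, 7.68 and 7.61 in control and 9.44, 9.95 and 9.44 post injury. Control and injured arrays were separated in both genotypes, as were those of 20.3% of all probes in WT and 24.5% in Mapk9 KO in this direction. Plk3 rose by 2.13 in WT (SE 0.19, 4.37-fold, adjusted p = 5.27e-05) and by 2.09 in Mapk9 KO (SE 0.20, 4.24-fold, adjusted p = 2.22e-05).

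Patterns were compared by the root mean square (RMS) difference of log2 values, each probe centred on its own mean over the 12 arrays. Of the 13973 probes detected on all 12 arrays, those with the symbol of another gene were compared. The genes most like Plk2 were Rai3 (0.204), Prkg2 (0.226) and 1700012B18Rik (0.234), where the median over these probes was 1.21. The nearest to Plk3 were 9530077A17Rik (0.165) and Slc2a3, a glucose transporter (0.169), against a median of 1.10. The symbols are those of the array's design.

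**Figure D2:**
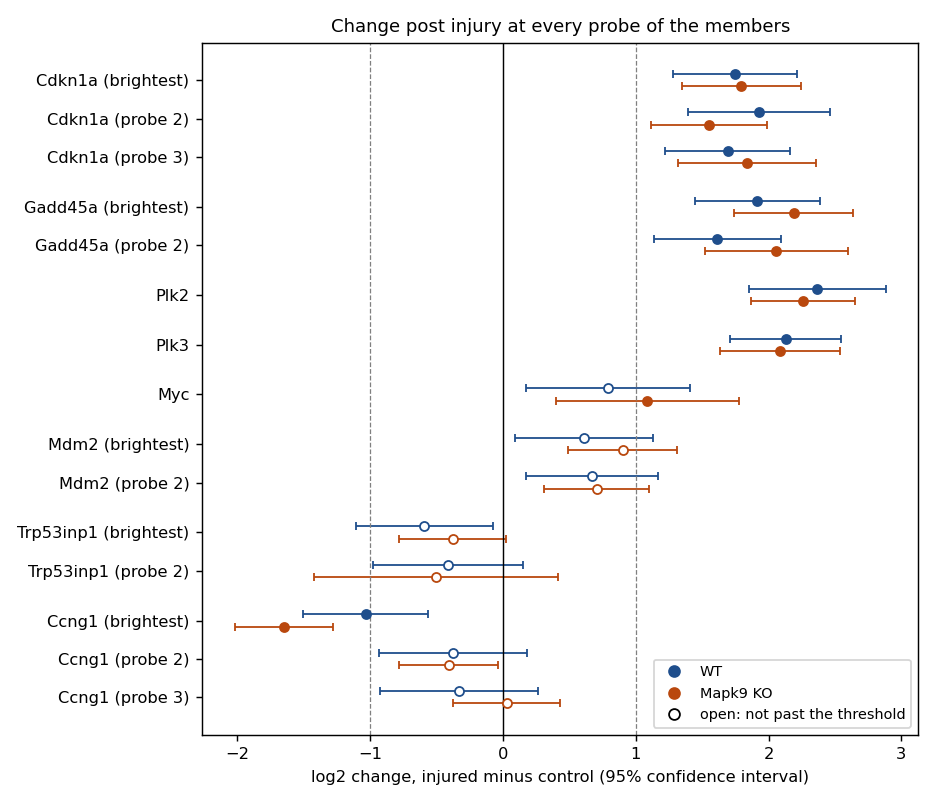
Change post injury on the log2 scale (injured minus control) with its 95% confidence interval at each of the 15 member probes, blue for WT and orange for Mapk9 KO. Filled points passed the fold and adjusted p threshold, dashed lines mark a 2-fold change. All probes of Cdkn1a, Gadd45a, Plk2 and Plk3 are filled in both genotypes, and 1 of 3 Ccng1 probes is.

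Mdm2, the ubiquitin ligase that restrains p53 and is itself a p53 target, moved less. Its brightest probe read 10.89, 11.21 and 10.52 on the WT control arrays and 11.68, 11.53 and 11.23 on the WT injured arrays. The Mapk9 KO arrays read 10.56, 10.70 and 10.27 in control and 11.29, 11.60 and 11.35 post injury. No injured array fell within the range of its controls. In WT 20.3% of all probes, and in Mapk9 KO 24.5%, were separated upwards in this way. The difference was 0.61 in WT (95% confidence interval 0.09 to 1.13, adjusted p = 0.0857) and 0.90 in Mapk9 KO (0.49 to 1.31, adjusted p = 0.00308), and neither reached the 2-fold limit. The other Mdm2 probe differed by 0.67 and 0.71.

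Ccng1 encodes cyclin G1, a p53 target that recruits a phosphatase to Mdm2, and it was the member that was downregulated. Its brightest probe read 10.75, 11.11 and 11.36 on the WT control arrays and 10.03, 10.09 and 9.999 on the WT injured arrays. The Mapk9 KO control arrays read 11.68, 11.74 and 11.53 and the injured arrays 9.88, 10.06 and 10.06. It fell by 1.03 in WT (SE 0.21, 2.05-fold, adjusted p = 0.00616) and by 1.65 in Mapk9 KO (SE 0.17, 3.14-fold, adjusted p = 2.67e-05). The fall in WT was near the fold limit, and without WT control replicate 3 it was 0.89 in size and no longer called.

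The Ccng1 call rested on 1 of 3 probes. The second probe differed by -0.38 in WT (adjusted p = 0.309) and -0.41 in Mapk9 KO (adjusted p = 0.0793), and the dimmest by -0.33 in WT (adjusted p = 0.409) and 0.03 in Mapk9 KO (adjusted p = 0.921). The sequences show which transcript letters each probe reads, and the number in brackets is the first base in the design's source sequence.
Ccng1 brightest probe (20): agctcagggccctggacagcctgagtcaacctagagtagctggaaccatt
Ccng1 second probe (822): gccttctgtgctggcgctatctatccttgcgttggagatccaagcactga
Ccng1 dimmest probe (1003): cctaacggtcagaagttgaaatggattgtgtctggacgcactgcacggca

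Skeletal muscle genes were lower post injury in the same arrays. All 10 genes of a muscle list, which included Ckm, Acta1 and Mylpf, were downregulated in both genotypes (9 in WT with the replicate number as a block, without Acta1), and their mean level was 11.8 to 12.9 on WT control arrays and 8.59 to 10.8 on WT injured arrays. In Mapk9 KO the mean was 13.1 to 13.6 in control and 9.11 to 10.5 post injury. Of 3 measured adipocyte genes, 1 was downregulated in WT and 2 in Mapk9 KO. Cfd, which encodes the adipocyte protease adipsin, fell by 3.65 in WT and fell by 6.21 in Mapk9 KO, and Adipoq fell by 1.74 in Mapk9 KO and differed by -0.99 in WT, while Plin1 was detected on 1 of the 12 arrays. Of other marker lists, 3 of 6 neutrophil genes were upregulated in both genotypes, and of 6 macrophage genes 2 were upregulated and 3 (WT) or 4 (Mapk9 KO) downregulated. The neutrophil genes Ltf and Mpo passed at dimmer probes alone, with their brightest at 0.39 and 0.67 in WT and -0.20 and 0.11 in Mapk9 KO. Lyz2 of the macrophage list also passed at a dimmer probe, with its brightest at 0.95 in WT and 0.96 in Mapk9 KO. Of 4 osteoblast genes, 1 was downregulated in WT (Sp7) and 2 in Mapk9 KO (Sp7 and Col1a1), of 6 erythroid genes 1 was downregulated in both (Klf1), and of 5 endothelial genes 1 was upregulated in WT (Cdh5) and 0 in Mapk9 KO. Over all genes, 8.36% were upregulated and 8.25% downregulated in WT, and 10.6% and 10.4% in Mapk9 KO. The part of muscle and of these cells in the members' values was not tested. Among 8 measured chondrocyte genes, 6 were upregulated in WT and 7 in Mapk9 KO, Acan and Matn1 among them, and 1 was downregulated in WT (Col11a1, at a dimmer probe). Col2a1 differed by 0.54 and 0.03, and the list mean went from 10.27 to 10.98 on WT control arrays to 12.03 to 12.36 on WT injured arrays.

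**Figure D3:**
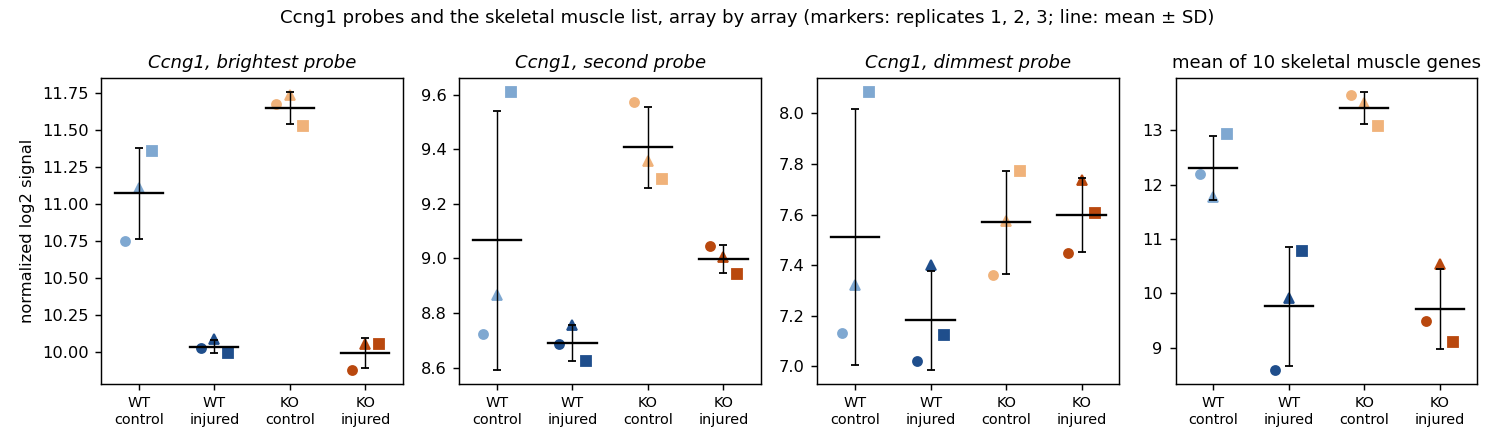
Normalized log2 signal of the 3 Ccng1 probes and the mean of 10 skeletal muscle genes on each array. Points are replicates 1, 2 and 3, lines are means and bars SD (n = 3), and each panel has its own axis, which does not start at 0. The brightest probe and the muscle mean are lower on all injured arrays than on any control array, and the dimmest probe overlaps between the groups. Within a genotype, 20.8% of all probes in WT and 25.2% in Mapk9 KO were separated downwards.

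Trp53inp1 encodes a p53-induced nuclear protein that promotes p53 activity and autophagy. Its brightest probe read 10.19, 10.50 and 9.71 on the WT control arrays and 9.60, 9.51 and 9.52 on the WT injured arrays. The Mapk9 KO arrays read 9.90, 9.97 and 10.03 in control and 9.67, 9.79 and 9.32 post injury. The injured arrays lay below their controls in both genotypes, as did those of 20.8% of all probes in WT and 25.2% in Mapk9 KO. The difference did not pass the test, at -0.59 in WT (95% confidence interval -1.10 to -0.08, adjusted p = 0.0902) and -0.38 in Mapk9 KO (-0.78 to 0.03, adjusted p = 0.130). With each array left out it was -0.80 to -0.41 in WT and -0.48 to -0.24 in Mapk9 KO. The other probe, which overlapped between groups, differed by -0.41 and -0.50.

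Myc was near the detection limit. The probe was detected, with a detection p under 0.05, on 1 of 3 WT control, 2 of 3 WT injured, 1 of 3 Mapk9 KO control and 3 of 3 Mapk9 KO injured arrays. Values on the WT arrays were 5.73, 4.57 and 5.10 in control and 5.94, 5.84 and 5.97 post injury. On the Mapk9 KO arrays they were 6.11, 4.81 and 5.76 in control and 6.89, 6.26 and 6.79 post injury. The lowest value of a detected probe was 5.62 to 6.05 on the 12 arrays, and 4 of 6 Myc control values were not detected. Myc was called upregulated in Mapk9 KO, at 1.09 (SE 0.31, adjusted p = 0.0181) over controls of which 2 of 3 were not detected, and it was 0.42 with quantile normalization without background correction. In WT the difference was 0.79 (SE 0.28, adjusted p = 0.0633), and it was 0.51 to 1.08 with each array left out. The Mapk9 KO call was lost without Mapk9 KO control replicate 2 (0.71, adjusted p = 0.0551), without Mapk9 KO injured replicate 1 (0.96) and without replicate 3 (1.02), and a WT call appeared without WT control replicate 1 (1.08, adjusted p = 0.0177).

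The targeted gene was lower on the arrays labelled Mapk9 KO. The brighter Mapk9 probe read 10.05 to 10.90 on the 6 WT arrays and 8.69 to 9.28 on the 6 Mapk9 KO arrays, on all of which it was still detected, and the dimmer probe was detected on 4 of 6 WT and 0 of 6 Mapk9 KO arrays.

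Between genotypes, 0 members passed the limma test in control cartilage (0.119% of all probes passed) and 0 in injured cartilage (0.181%), with 1 and 2 members at an unadjusted p under 0.05, as had 6.46% and 12.6% of all probes. In the interaction, limma called 0 members and 0 probes of the whole table (0%), where 1 member and 2088 probes (9.94%) had an unadjusted p under 0.05. With the replicate number as a block, 188 rather than 38 probes were called between genotypes in injured cartilage and 112 in the interaction, 0 of them probes of members. The interaction called 242 probes without WT control replicate 3, again 0 of them of members. For the 4 members upregulated in both genotypes, the change in Mapk9 KO minus that in WT was 0.05 for Cdkn1a (95% confidence interval -0.56 to 0.65), 0.28 for Gadd45a (-0.33 to 0.89), -0.11 for Plk2 (-0.72 to 0.50) and -0.04 for Plk3 (-0.61 to 0.52). These intervals leave room for changes that differ by -0.72 to 0.89 on the log2 scale. Ccng1 was the sole member with an unadjusted p under 0.05 for the interaction, at -0.62 (adjusted p = 0.432), and its brightest probe was 0.58 higher in Mapk9 KO than in WT control cartilage without overlap, as were 4.26% of all probes (adjusted p = 0.702). The muscle mean was also higher on every Mapk9 KO control array than on any WT control array, but 0 of the 10 muscle genes passed the test between genotypes there. Any link to Ccng1 was not tested. On the injured arrays, Myc was 0.73 higher in Mapk9 KO than in WT without overlap, as were 7.36% of all probes (adjusted p = 0.226), and it had an unadjusted p under 0.05, as had the dimmest Ccng1 probe (0.42 higher, adjusted p = 0.370).

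Trp53, the gene of p53 itself, was not called in either genotype. Its brightest probe read 10.28, 9.24 and 9.77 on the WT control arrays and 10.37, 10.53 and 10.24 on the WT injured arrays, a difference of 0.62 (adjusted p = 0.122). In Mapk9 KO the difference was 0.11 (adjusted p = 0.646). The counts of the lists that follow call a gene if any of its probes passed, and stand against 8.36% of all genes upregulated and 8.25% downregulated in WT and 10.6% and 10.4% in Mapk9 KO. Of 10 measured genes of p53 and its regulators, 1 was upregulated and 1 downregulated in WT and 2 and 1 in Mapk9 KO. These were Hipk2, a kinase of p53, upregulated by a dimmer probe in both genotypes (1.12 and 1.29) while its brightest was at -0.48 and -0.53, and Chek2, a checkpoint kinase, downregulated by a dimmer probe (-1.11 and -1.10). Mdm4, the partner of Mdm2 in restraining p53, rose in Mapk9 KO by 1.03 (adjusted p = 0.00211) and differed by 0.36 in WT (adjusted p = 0.327). At 1 of 3 probes of Cop1, which encodes another ubiquitin ligase of p53, the change in Mapk9 KO minus that in WT was 1.58 (interaction adjusted p = 0.312, and 0.0374 with the replicate number as a block).

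Of 26 measured genes among the other p53 targets, 5 were upregulated and 3 downregulated in WT, and 5 and 2 in Mapk9 KO, where the shares of all genes were 8.36% and 8.25%, and 10.6% and 10.4%. The 18 others in WT and 19 others in Mapk9 KO did not pass, and the median change of the list was 0.08 in both genotypes, where all probes had -0.02. Upregulated in both were Gdf15, a stress-induced cytokine, Sesn2, a sestrin that restrains mTORC1, the death receptor genes Fas and Tnfrsf10b, and Bbc3, which encodes the pro-apoptotic protein Puma.

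Gdf15 was not detected on any of the 6 control arrays and was detected on all 6 injured arrays, at 8.98, 9.35 and 9.62 in WT and 9.002, 8.965 and 9.071 in Mapk9 KO. It was at least 11.1-fold higher post injury in WT (adjusted p = 1.12e-05) and at least 8.45-fold in Mapk9 KO (adjusted p = 3.08e-07). These bounds set the control arrays at the lowest signal of a detected probe. Sesn2 rose by 1.74 and 1.93, Fas by 1.48 and 1.53 and Bbc3 by 1.29 and 1.18. The other Fas probe differed by 0.93 in WT, under the fold limit, and rose by 1.60 in Mapk9 KO. Tnfrsf10b was called at 3 of its 4 probes in both genotypes. None of the 3 was detected on a control array. This bounds the rise at at least 1.63-fold, 2.58-fold and 2.09-fold in WT, and at least 1.32-fold, 2.84-fold and 2.41-fold in Mapk9 KO. The brightest Tnfrsf10b probe, detected on all 12 arrays, differed by 0.49 in WT (adjusted p = 0.164) and 0.55 in Mapk9 KO (adjusted p = 0.149). Of the 3 Bbc3 probes, the other 2 were not called in WT. 1 of them differed by 0.10, and the last was detected on 0 of 3 WT control and 1 of 3 WT injured arrays, so no size is given.

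Phlda3, which encodes a repressor of Akt, went the other way. Its level was 9.56, 9.34 and 10.10 on WT control arrays and 7.72, 8.09 and 8.23 on WT injured arrays, a fall by 1.65 (adjusted p = 0.00113), and it fell by 2.22 in Mapk9 KO (adjusted p = 5.28e-06). Zmat3, an RNA-binding p53 target, fell by 1.23 in WT (adjusted p = 0.00545) and differed by -0.66 in Mapk9 KO, and Apaf1, the caspase activator, fell in WT by 1.22 at 1 of its 3 probes (adjusted p = 0.0420) with the others at -0.02 and -0.01, and the same probe differed by 0.28 in Mapk9 KO (interaction adjusted p = 0.382). Sesn1 fell at its brightest probe in Mapk9 KO by 1.07 (adjusted p = 0.00108) and differed there by -0.72 in WT. The other Sesn1 probes were not called, at -0.95 and 0.19 in Mapk9 KO and -0.85 and 0.57 in WT. Bax, whose product opens the outer mitochondrial membrane, differed by 0.83 in WT and 0.27 in Mapk9 KO and stayed under the fold limit.

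**Figure D4:**
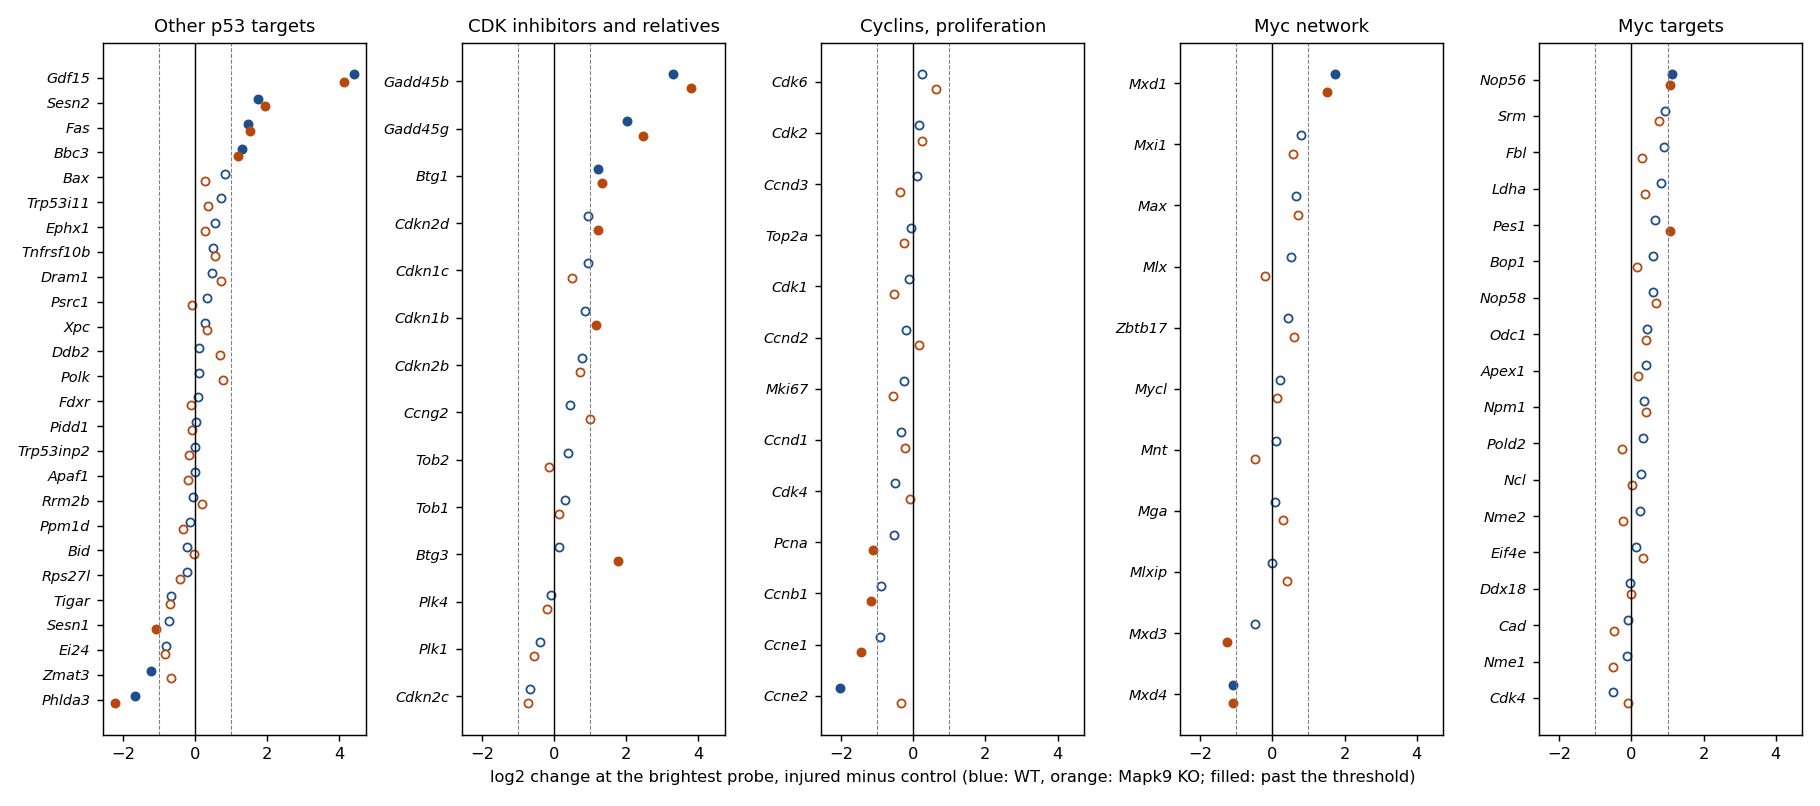
Change post injury on the log2 scale (injured minus control) at the brightest probe of each measured gene of 5 lists, blue for WT and orange for Mapk9 KO, ordered by the WT value. Filled points passed the threshold and dashed lines mark a 2-fold change. Gdf15, Gadd45b and Gadd45g lie farthest to the right, and among the Myc genes Mxd1 and Mxd4 are filled in both genotypes on opposite sides of 0. Points of genes not detected on control arrays, such as Gdf15 in both genotypes and Btg3 in Mapk9 KO, rest on control values below the detection limit.

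Of 14 measured CDK inhibitors and relatives of Gadd45, Btg, Tob and Plk, 3 were upregulated in WT and 6 in Mapk9 KO, with 0 downregulated in either, where 8.36% and 10.6% of all genes were upregulated. The other 11 in WT and 8 in Mapk9 KO did not pass, and the median change was 0.62 and 0.85. Gadd45b, a stress-induced relative of Gadd45a, read 7.64, 7.38 and 8.24 on WT control arrays and 10.77, 11.11 and 11.26 on WT injured arrays, a rise by 3.29 (adjusted p = 2.66e-05), and it rose by 3.80 in Mapk9 KO (adjusted p = 1.85e-07). Gadd45g rose by 2.03 in WT (adjusted p = 8.93e-05) and 2.47 in Mapk9 KO (adjusted p = 1.93e-06), so that all 3 Gadd45 genes were upregulated in both genotypes.

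Btg1, a relative of Btg2, rose at its brightest probe by 1.21 in WT (adjusted p = 0.00688) and 1.32 in Mapk9 KO (adjusted p = 0.000489). Another Btg1 probe differed by 0.71 in WT (adjusted p = 0.154) and rose by 2.18 in Mapk9 KO (interaction adjusted p = 0.313, and 0.0691 with the replicate number as a block). The CDK inhibitor genes Cdkn1b (p27) and Cdkn2d (p19) rose in Mapk9 KO by 1.16 and 1.21, and in WT differed by 0.86 and 0.95, within the fold limit. Btg3 rose in Mapk9 KO, where it was not detected on the 3 control arrays, at least 3.08-fold (adjusted p = 5.72e-05), and in WT it differed by 0.14 (adjusted p = 0.774). Because of the undetected arrays no size is given for the difference between these changes, and its test rests on values below the detection limit (interaction adjusted p = 0.277, and 0.0447 with the replicate number as a block). The other polo-like kinase genes, Plk1 and Plk4, differed in WT by -0.39 and -0.10.

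Of 13 measured cyclins and other proliferation genes, 0 were upregulated and 1 downregulated in WT, where 8.36% and 8.25% of all genes were, and 1 was upregulated and 4 downregulated in Mapk9 KO, where 10.6% and 10.4% of all genes were. Ccne2, which encodes cyclin E2, fell in WT by 2.03 (adjusted p = 0.00434), from 7.55, 7.90 and 7.47 to 6.53, 4.66 and 5.62, where it was detected on 1 of 3 injured arrays. In Mapk9 KO it differed by -0.33, and the difference between the changes was 1.70 (interaction adjusted p = 0.368). In Mapk9 KO, Ccne1 fell by 1.45 and Ccnb1 by 1.17. Pcna, detected on 2 of 3 Mapk9 KO control and 0 of 3 injured arrays, was at least 1.15-fold lower, and Top2a fell by 1.22 at 1 of its 3 probes, with its brightest at -0.26. Cdk2 was called upregulated in Mapk9 KO at 1 of 4 probes (1.10), with the brightest at 0.23 and an interaction adjusted p of 0.0290 with the block against 0.329 without. Mki67, the gene of the Ki-67 antigen, differed by -0.26 in WT and -0.56 in Mapk9 KO.

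In the Myc network, 1 of 11 measured genes was upregulated and 1 downregulated in WT, near the 8.36% and 8.25% of all genes, and 3 and 2 in Mapk9 KO, where 10.6% and 10.4% of all genes passed. Mxd1, which encodes a repressor that competes with Myc for Max, read 8.46, 8.91 and 8.46 on WT control arrays and 10.33, 10.44 and 10.26 on WT injured arrays, and it rose by 1.73 (adjusted p = 0.000292) and by 1.52 in Mapk9 KO (adjusted p = 5.34e-05). Its relative Mxd4 fell by 1.10 and 1.08, and Mxd3 fell in Mapk9 KO by 1.25. The brightest Max probe differed by 0.66 in WT (adjusted p = 0.0521) and 0.72 in Mapk9 KO, and its other probe rose in Mapk9 KO by 1.58. Mxi1, another antagonist, was called upregulated in Mapk9 KO at 1 of 2 probes, which was detected on 0 of 3 control and 2 of 3 injured arrays, so no fold is given.

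Of 18 measured Myc targets, 1 was upregulated in WT, where 8.36% of all genes were, and 3 in Mapk9 KO, where 10.6% were, with 0 downregulated. Nop56, a component of the box C/D particles that modify ribosomal RNA, rose by 1.13 in WT (adjusted p = 0.00651) and 1.08 in Mapk9 KO (adjusted p = 0.000507). Pes1, a ribosome assembly factor, rose in Mapk9 KO by 1.08 (adjusted p = 0.00233) and differed by 0.66 in WT, and Srm, the spermidine synthase, rose in Mapk9 KO at 1 of 3 probes by 1.296. The median change of the list was 0.37 in WT and 0.23 in Mapk9 KO. Odc1, Npm1 and Ncl, long known as Myc targets, differed in WT by 0.42, 0.34 and 0.26.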

How the data were processed

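Total RNA of hip cartilage was amplified, biotinylated and read on Illumina mouse BeadChips (12 arrays, 3 per group by the labels). Uncorrected intensities of 45281 probes were deposited with a detection p-value each. The authors also deposited log2 values of 21004 probes, made from the intensities by subtracting a background estimated on negative controls and by vsn normalization. The versions of R and vsn that the authors used are not given in the sources used here. A detection p under 0.05 was taken as detected. Between 16930 and 18969 probes were detected per array, and the number of arrays limits the precision.

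The log2 values were tested with limma 3.58.1 (lmFit and eBayes, R 4.3.3), with the 6 arrays of each comparison or all 12 for the interaction, Benjamini-Hochberg adjustment over all 21004 probes and a 2-fold limit, except for the interaction. The script was tested on simulated data. Where a gene had several probes, the probe with the highest mean was taken as its level, and a list gene counted as called if any probe passed. A probe undetected on all arrays of a group was set to the lowest signal of a detected probe on each array to give a bound. All probes of the members were named. Genes of the p53, CDK inhibitor, proliferation and Myc lists were named where they passed in either genotype, with Trp53, Mdm4, Max and Mapk9. Marker lists were given by counts, and the other genes named are examples chosen after their values were seen. The 3 genes most like Plk2 and Plk3 were named, except that 1 result under this rule is not reported here. The members and lists were chosen with earlier results of these data known. Probe coordinates are not given because their build is not named.

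Samples shared replicate numbers. Deviations from the group means correlated at 0.153 to 0.390 over the 18 pairs with the same number and at -0.289 to 0.0825 over the 36 others, so a fit with the number as a block was added. Whether replicates pooled separate animals is given for the WT arrays. The smallest two-sided p of an exact permutation test of 3 against 3 arrays is 0.1, so no such test was used. Alternatives were other background correction and normalization, array medians subtracted, a detection filter, all 12 arrays in the fit, a t-test named in the study's methods, other fold limits, other probes and each array left out.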

Additional observations from a re-analysis of the deposited data

How the results depend on the processing

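The number of members called stayed within 1.5 times the number given above under all alternatives, at 4 to 6 in WT and 5 to 6 in Mapk9 KO with each array left out, and at 5 and 6 with the replicate number as a block. With the block the member counts for both genotype comparisons and the interaction were 0, as without it, and in the injury comparisons, checked probe by probe, it changed no call of a member or of a list gene except Acta1 of the muscle list in WT (adjusted p = 0.0628). In the interaction it called Btg3, Cdk2 and Cop1. In WT the adjusted p with the block was 0.0441 for Mdm2 and 0.0423 for Myc, and that of Trp53inp1 was 0.0341 with normexp and quantile normalization, 0.0174 with quantile normalization without background correction, 0.0399 with all 12 arrays in the fit and 0.0225 without WT control replicate 3, all under the 2-fold limit. Of the values of single members under alternatives, 225 kept direction and call, 11 lost the call, 1 gained it and 1 reversed, Ccng1 in Mapk9 KO at its dimmest probe (0.029). The WT fall of Ccng1 was also lost with array medians subtracted (-0.98), and the Myc call in Mapk9 KO with normexp and quantile normalization (0.98), with quantile normalization without background correction (0.42) and with the methods' t-test (adjusted p = 0.147). The cause was not tested. The share of all probes that passed moved more. In WT 3086 probes passed, and 1141 did with quantile normalization without background correction, 1624 with the methods' t-test, 5319 without a fold limit and 5299 at a limit of 1.5. In Mapk9 KO the count was 3934, against 1771, 8045 and 7323 for the first and the last 2 of these. Between genotypes 25 probes passed in control cartilage (412 without WT control replicate 3, 44 with all 12 arrays, 13 with quantile normalization without background correction, 0 with the t-test) and 38 in injured cartilage (22 and 0 by the last 2, 188 with the block, 23 to 154 with each array left out). Low signal over background limits Myc, the control values of Gdf15, and Btg2, which has no level.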
